A study of Mus musculus with 15 samples.

Results

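RNA helicases of the DEAD-box (Ddx) and DEAH-box (Dhx) families, ribosome assembly factors of the Utp, Rrp, Nop and Nol series and subunits of the RNA exosome (Exosc) were followed in mouse ventricular cardiomyocytes. Members were taken by a rule on names: a gene symbol that begins with Ddx, Dhx, Utp, Rrp, Nop, Nol or Exosc followed by a digit. The rule was set with earlier results of these data known. It gave 88 of the 9666 genes in the deposited table, and all 88 passed the filter on low values used for testing. The mouse annotation GENCODE M21 holds 99 protein-coding names of this form, and the other 11 (Ddx4, Ddx11, Ddx25, Ddx31, Ddx43, Ddx60, Dhx58, Nol4, Nol4l, Nop53 and Utp14b) were not analysed here. A few names match by spelling rather than by function, Nol3 above all, and these were kept and described as a class of their own.

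Ribosomes are assembled in the nucleolus, where RNA polymerase I makes a long precursor that is folded, chemically modified and cut into the ribosomal RNAs. Utp proteins join it early as part of the small-subunit processome, small nucleolar ribonucleoproteins (snoRNPs) built on Nop56 and Nop58 or on Nop10 guide its modification, and the exosome trims its 3′ ends. DEAD-box and DEAH-box helicases use ATP to unwind or remodel RNA, in ribosome assembly, in splicing, and in export, translation and decay of mRNA. In heart muscle, growth of the cell goes along with making ribosomes.

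The libraries came from wild-type C57BL/6 mice: 7 from adults of 8 to 12 weeks, 4 from postnatal day 1 (P1) and 4 from postnatal day 3 (P3), with no treatment or engineered allele named. RNA was total RNA taken with TRIzol and sequenced after an Illumina library kit. The labels do not say whether each library is a separate animal or a pool, and give no sex, so the spread behind every p-value is the spread among these libraries and may be technical. The question behind the design is what separates neonatal from adult heart muscle cells.

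All levels are RPKM, the reads per kilobase of gene scaled to the size of the library. A change is the difference between 2 group means of log2(RPKM + 0.5). A gene is called when limma gives a Benjamini-Hochberg adjusted p under 0.05 over all 9389 tested genes together with a log2 change of at least 1. Relative to adult, the median tested gene itself lay 1.36 higher in P1 and 1.48 higher in P3, so most genes of the table lie higher in neonatal libraries on the deposited scale. Each change below is best read against those medians. Values after median-of-ratios scaling, which centres the typical gene near 0, are given for most classes and some genes. A gene printed without one may not be called on that scale. Counts against adult are best read against all tested genes, of which 62.7% were called higher on each day. After median-of-ratios scaling those shares were 16.5% in P1 and 22.7% in P3.

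The libraries also differed in cell type markers. The 12 cardiomyocyte markers held 12.3% to 14.1% of the RPKM sum in adult, 1.96% to 4.80% in P1 and 0.341% to 2.03% in P3, with P3 replicate 1 at the top of its group. Their summed RPKM was 18590 to 35340 in adult, 5897 to 13880 in P1 and 777.9 to 6501 in P3. Of 10 listed endothelial markers in the table, summed RPKM ran from 9.10 to 1280 in adult, from 348.9 to 825.6 in P1 and from 1193 to 2888 in P3. Fabp4 alone gave 1065 of the 1280, in adult replicate 4. In percent of the RPKM sum the 10 held 0.00522% to 0.457% in adult, 0.122% to 0.274% in P1 and 0.372% to 1.27% in P3. For 6 fibroblast markers the sums were 2.15 to 148.1, 709.6 to 3172 (highest in P1 replicate 1) and 1740 to 2634. Most of the neonatal fibroblast sums was Vim (means of 18.3, 934.7 and 1587 RPKM in adult, P1 and P3). The 4 mural markers summed to 20.1 to 101.4, 168.3 to 679.5 and 613.9 to 1135 in the same order. They did not move together. Acta2 (means of 27.4, 326.2 and 495.1 RPKM) and Tagln (1.08, 159.4 and 295.6) made up most of the neonatal sums. Rgs5 went the other way (23.7, 4.27 and 8.71), and Myh11 stayed low (0.327, 0.911 and 1.43). No marker is listed at 0, as the lowest value in the table is 0.1001, and none of the immune, erythroid and epicardial markers was in the table. The part of these markers in the results below was not tested, and in bulk RNA fewer cells of a type and less RNA per cell cannot be told apart. In the genes whose whole reads could be recovered from the RPKM steps, sums were 1206214 to 1423361 in adult replicates 1 to 4. They were 3014965 to 3164841 in adult replicates 5 to 7 and 4066211 to 5790234 in neonatal libraries. These sums leave out the other genes, among them those with the most reads, so they are not whole library depths.

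On the deposited scale, helicase and ribosome assembly genes were higher in neonatal than in adult libraries almost throughout, as were most tested genes. In P1, 80 of 88 were called higher than in adult and 0 lower, where 62.7% and 4.32% of all tested genes were called. At an unadjusted limma p under 0.05, 85 were higher and 1 lower, as were 77.1% and 7.24% of all tested genes. In P3, 78 of 88 were called higher (62.7% of all tested genes) and 1 lower (9.16% of all tested genes), and 77 were called higher on both days. The P1 and P3 comparisons share the adult libraries and are not independent of each other.

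The median of the 88 genes was 2.06 in P1 and 2.31 in P3 on the log2 scale, above the all-gene medians by 0.70 and 0.83. In P1, 73 of the 88 lay above the all-gene median, and 74 did in P3. Every neonatal library lay above or below every adult library for 80 of the 88 genes in P1 and for 81 in P3, where 70% and 72.3% of all tested genes did so. Together the 88 genes made up 0.206% to 0.300% of the RPKM sum in adult, 0.636% to 0.773% in P1 and 0.765% to 0.917% in P3, with no overlap between adult and neonatal libraries. Their mean log2 level stood -0.06 to 0.09 from the median gene of the same library in adult, 0.60 to 0.71 above it in P1 and 0.61 to 0.82 above it in P3.

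**Figure D1:**
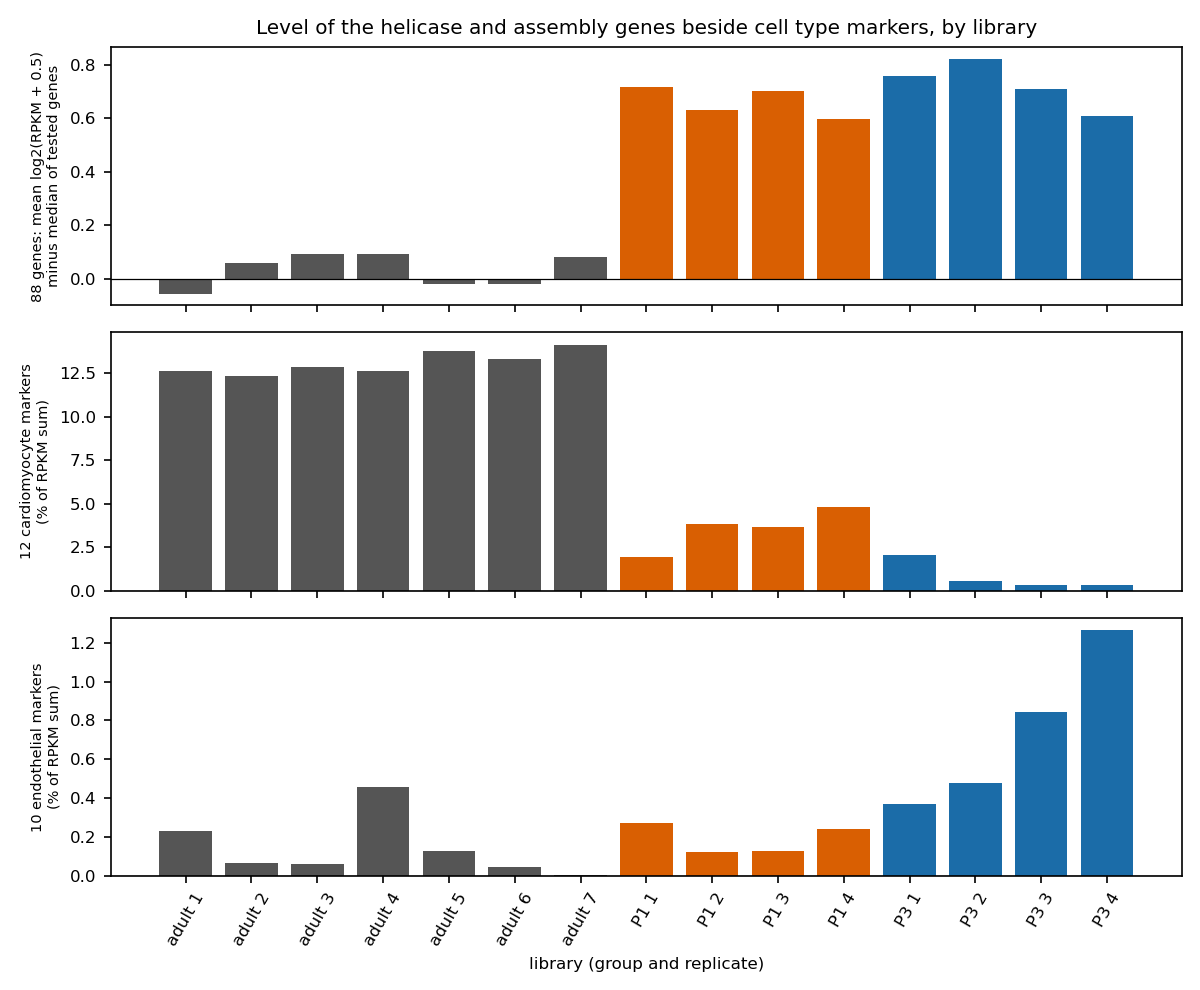
Level of the 88 genes and of cell type markers in each of the 15 libraries. Upper bars give the mean log2(RPKM + 0.5) of the 88 genes minus the median tested gene of that library, middle bars the 12 cardiomyocyte markers and lower bars the 10 endothelial markers, both in percent of the RPKM sum; the 88 genes stand at 0.60 to 0.82 in all 8 neonatal libraries and at -0.06 to 0.09 in adult, while cardiomyocyte markers fall from 12.3% or more in adult to 0.341% to 2.03% in P3.

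Centred on the typical gene, fewer passed. After median-of-ratios scaling 30 of 88 were called higher in P1 (16.5% of all tested genes) and 36 in P3 (22.7%), with medians of 0.69 and 0.87. On this scale 2 were called lower in P1 (19.7% of all tested genes), Ddx3y and Nol3, and 3 in P3 (24.9%), those 2 and Nop10. Quantile normalization gave 31 and 36 called higher (17.8% and 25.3% of all tested genes). Of the 87 genes above 0 on the deposited scale, median-of-ratios scaling put 15 below 0 in P1, 8 of them called higher before, and 14 in P3, 5 of them called higher before. Ddx1, Ddx19b, Ddx28, Ddx3y, Ddx50, Ddx59, Dhx29, Dhx32, Dhx34, Dhx35, Exosc7, Nol7 and Nop10 turned in this way on both days, Ddx24 and Dhx40 in P1 and Exosc9 in P3. Called higher in P1 under all 27 settings tried were 30 genes, among them Nop58, Nop56, Nop2, Utp4, Utp18, Utp20, Ddx21, Ddx39 and Ddx3x. For P3 that count was 35, with the same examples.

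**Figure D2:**
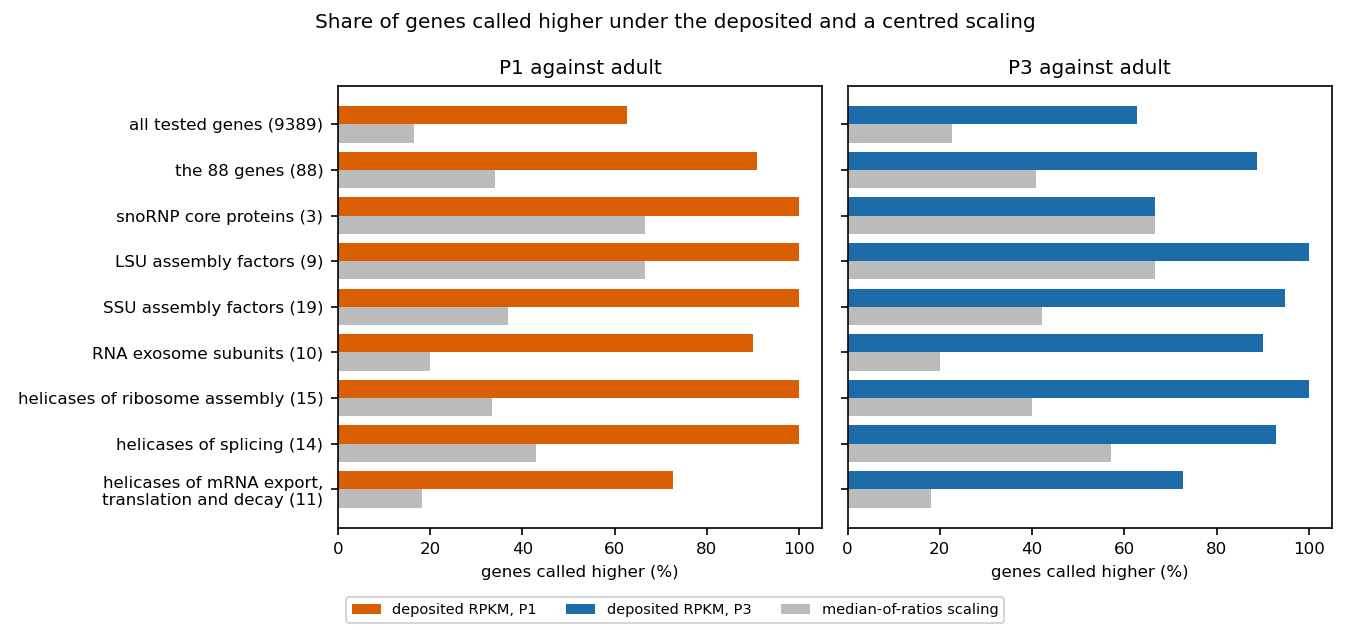
Share of genes called higher in P1 (left) and in P3 (right) against adult, in percent of the tested genes of each class, whose number is in brackets. Coloured bars use the deposited RPKM and grey bars median-of-ratios scaling; on the deposited scale 80 and 78 of the 88 genes are called, on the centred scale 30 and 36.

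Promoters were read for those of the 88 genes with a listed promoter, whatever their change. RefSeq lists a promoter of 300 bases (250 before and 50 after the start, build GRCm38.p6) for 76 of the 88 genes, and the first listed start was used. The letters searched, on both strands and without screening for overlaps between motifs, were chosen after the expression results were known. The ETS motif CCGGAAG stood in 28 of the 76 promoters (36.8%), in 20.7% of those of the other genes in the table and in 9.12% of all listed promoters. The E-box CACGTG, the letters bound by Myc-type factors, stood in 10 (13.2%), in 11.0% and in 7.24%. A CCAAT box (CCAAT) stood in 42.1%, 39.2% and 37.9%, and a GC box (GGGCGG) in 68.4%, 68.3% and 35.9%. Genes with and without the ETS letters had median changes of 2.05 and 2.09 in P1 and of 2.07 and 2.36 in P3. The 10 with an E-box had 2.51 against 2.03 without in P1, and 2.89 against 2.33 in P3. These differences were not tested. These matches describe letters, not bound sites.

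Shown here are the 150 bases before the start for 2 large rises whose promoter holds both motifs, Nop2 (chr6:125131733-125131882, plus strand) and Utp18 (chr11:93885767-93885916, minus strand). They are followed by a pair of neighbouring paralogs that changed by different amounts, Ddx21 (chr10:62602299-62602448, minus strand) and Ddx50 (chr10:62651219-62651368, minus strand, the first of 2 listed starts). Capitals mark the E-box CACGTG and the ETS motif CCGGAAG; of these 4 only Ddx21 holds neither in this window.
Nop2: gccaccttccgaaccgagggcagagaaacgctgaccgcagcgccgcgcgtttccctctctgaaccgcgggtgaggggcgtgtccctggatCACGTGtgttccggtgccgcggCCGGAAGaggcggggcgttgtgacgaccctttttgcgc
Utp18: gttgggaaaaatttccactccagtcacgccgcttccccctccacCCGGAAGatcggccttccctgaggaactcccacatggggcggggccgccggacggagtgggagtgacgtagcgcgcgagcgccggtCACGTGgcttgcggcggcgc
Ddx21: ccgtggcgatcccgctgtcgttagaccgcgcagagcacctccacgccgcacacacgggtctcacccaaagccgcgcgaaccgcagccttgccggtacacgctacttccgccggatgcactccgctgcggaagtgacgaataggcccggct
Ddx50: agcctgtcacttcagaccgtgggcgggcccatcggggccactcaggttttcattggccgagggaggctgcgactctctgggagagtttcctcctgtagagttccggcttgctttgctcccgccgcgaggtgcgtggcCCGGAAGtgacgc

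The core proteins of snoRNPs held both the largest rise of all 88 genes and one of the smallest. Nop58, a scaffold of the box C/D particles that guide ribose methylation, had RPKM of 3.01, 5.01 and 7.50 (lowest, median and highest) in adult. In P1 it had 97.1, 69.3, 76.9 and 63.5, and in P3 90.5, 104.7, 95.4 and 61.4. No neonatal library came near the adult range, and limma put Nop58 3.85 higher in P1 (SE 0.21, adjusted p = 9.2e-11). In P3 the difference was 4.04 (SE 0.21, limma adjusted p = 2.6e-11). Its partner Nop56 was 3.10 and 3.37 higher. Nop10, a small protein of the box H/ACA particles that guide pseudouridylation, was already high in adult, at 23.2, 30.1 and 55.5 RPKM. It had 64.7, 82.1, 70.5 and 64.4 in P1 and 76.3, 46.7, 35.0 and 26.6 in P3, so that P1 lay above adult and P3 overlapped it. Nop10 was called higher in P1 (1.13, limma adjusted p = 7.2e-04) and not in P3 (0.42, limma adjusted p = 0.14), and its direction depends on the scaling: after median-of-ratios scaling it was -0.40 in P1 and -1.19 in P3.

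Factors of the large subunit, the part of the ribosome that joins amino acids, were called higher in 9 of 9 cases on both days, with medians of 2.49 in P1 and 2.62 in P3. Nop2, which methylates a cytosine of the large ribosomal RNA, had 0.895, 2.55 and 3.80 RPKM in adult. Its P1 libraries had 39.5, 38.3, 34.3 and 28.6, and its P3 libraries 48.9, 49.4, 35.0 and 21.6. The groups did not overlap, with differences of 3.67 (SE 0.29, limma adjusted p = 2.7e-09) and 3.74 (SE 0.29, limma adjusted p = 1.1e-09). Nol9, a polynucleotide kinase of precursor processing, rose by 3.36 and 3.69. At the other end, Nol8 was 1.53 and 1.88 higher and Rrp1 1.94 and 1.65 higher. After median-of-ratios scaling, 6 of the 9 were still called higher on each day, which leaves out Nol8 (0.20 and 0.46), Rrp1 (0.42 and 0.05) and Nol12 (0.81 and 0.90).

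Small-subunit factors were called higher in 19 of 19 cases in P1 and in 18 of 19 in P3, with medians of 2.17 and 2.36. Utp18, a subunit of the small-subunit processome, had 1.07, 1.35 and 1.95 RPKM in adult. It reached 21.0, 17.4, 17.1 and 14.6 in P1 and 24.1, 23.9, 20.3 and 14.6 in P3. Every neonatal library was above every adult one, and Utp18 was 3.23 higher in P1 (SE 0.18, limma adjusted p = 9.4e-11) and 3.45 higher in P3 (SE 0.18, limma adjusted p = 2.5e-11). Utp20, a very large scaffold of the same assembly, rose by 3.02 and 3.46, and Utp4, of its first-binding subcomplex, by 3.15 and 3.24. Rrp12, which helps export both subunits from the nucleus, was 3.15 higher in P1. In P3 its difference was 2.36, and 0.81 at its lowest over the 27 settings. The exception was Nol7, with 10.7, 12.1 and 25.5 RPKM in adult, 24.5 to 33.7 in P1 and 18.0 to 28.0 in P3. Its highest adult library, replicate 4, overlapped both neonatal ranges. It was called in P1 (1.11; 0.98 against adult replicates 1 to 4 alone, under the fold required) but not in P3 (0.64, limma adjusted p = 0.011, under the fold required). After median-of-ratios scaling 7 of the 19 were called higher in P1 and 8 in P3, and Nol7 stood at -0.39 in P1.

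Of the subunits of the RNA exosome, the 3′ to 5′ degradation complex, 9 of 10 were called higher on both days, with medians of 1.82 and 1.92. After median-of-ratios scaling 2 of the 10 (Exosc2 and Exosc6) were called on each day, a share near the 16.5% and 22.7% of all tested genes. Exosc6, part of the ring, had 0.483, 0.629 and 1.92 RPKM in adult, with replicate 4 above the other 6. In P1 it had 11.6, 10.1, 6.99 and 8.51, and in P3 14.2, 10.8, 9.27 and 6.55. The groups did not overlap and Exosc6 was 2.93 and 3.03 higher, although its adult values rest on as few as 8 reads in a library. Exosc10, a nuclease attached to the ring in the nucleus, rose from 6.54 RPKM ± 2.39 (SD, n = 7) to 24.9 ± 3.15 (SD, n = 4) in P1 and 26.3 ± 2.18 (SD, n = 4) in P3. Exosc7, another ring subunit, was not called: its libraries ran from 3.53 to 9.53 in adult, 7.98 to 14.1 in P1 and 6.57 to 13.9 in P3, with changes of 0.93 and 0.56. It passed in P1 without adult replicate 4 (1.04) or without P1 replicate 1 (1.10).

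**Figure D3:**
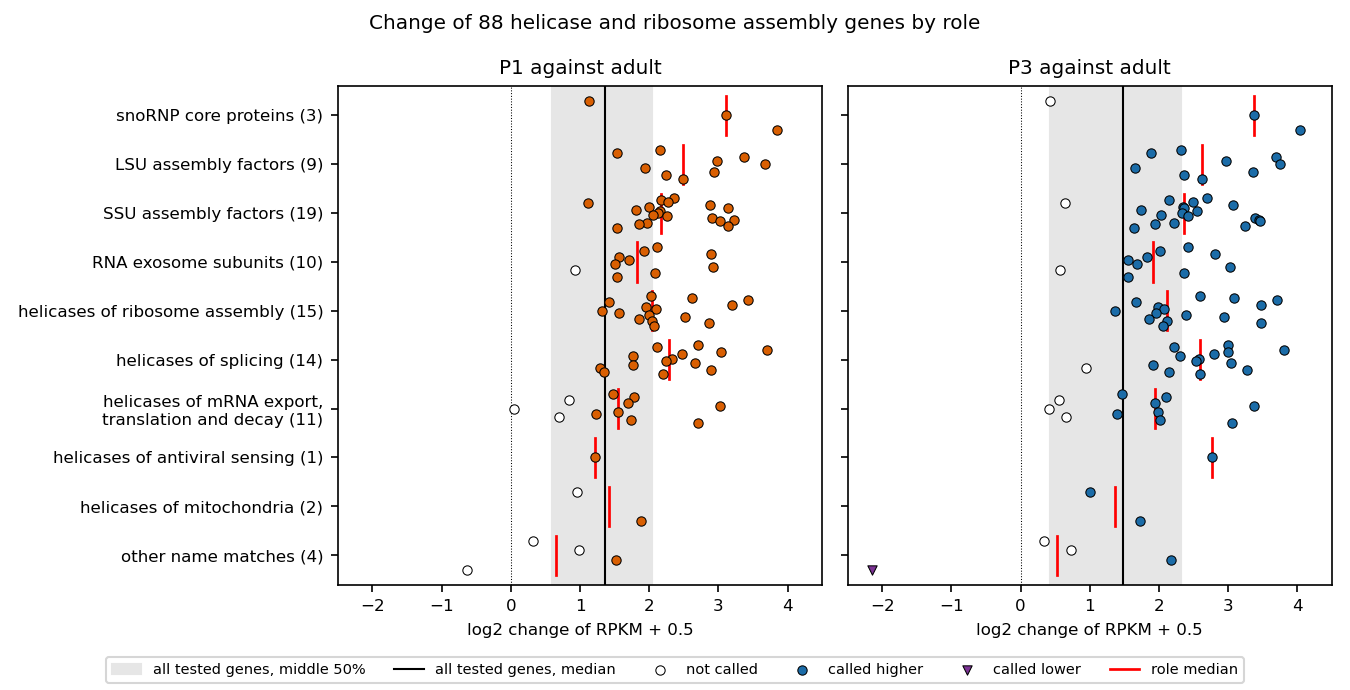
Log2 change of RPKM + 0.5 for each of the 88 genes by role, in P1 (left) and P3 (right) against adult; the number of genes in each role is in brackets, LSU and SSU stand for the large and the small subunit. Filled circles are genes called higher, open circles not called, the triangle is the gene called lower (Nol3 in P3), red lines are role medians, and the black line and grey band are the median and the middle 50% of all tested genes; among classes of more than 1 gene, the snoRNP, large-subunit and splicing classes have the medians farthest to the right on both days.

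Helicases of ribosome assembly were called higher in 15 of 15 cases on both days, with medians of 2.04 and 2.11. Ddx21, a nucleolar helicase that also binds RNA polymerase I genes, had 2.87, 4.03 and 6.05 RPKM in adult. In P1 it had 56.7, 45.2, 52.1 and 38.3, and in P3 60.3, 72.5, 60.3 and 43.0. It was 3.43 higher in P1 (SE 0.20, limma adjusted p = 1.2e-10) and 3.71 higher in P3 (SE 0.20, limma adjusted p = 2.8e-11), with no overlap. Ddx50, its closest relative and its neighbour on chromosome 10 on the same strand, was already higher than Ddx21 in adult, at 6.20, 7.74 and 10.1 RPKM. It had 24.8, 15.8, 22.4 and 17.6 in P1 and 21.0, 18.2, 22.4 and 21.0 in P3, all above adult. Its changes of 1.32 and 1.37 were the smallest of the class and close to that of the median gene, and median-of-ratios scaling put them at -0.17 and -0.20. After that scaling 5 of the 15 were called higher in P1 and 6 in P3, among them Ddx18, Ddx27 and Dhx33.

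Helicases of splicing and of the exon-bound export machinery were called higher in 14 of 14 cases in P1 and 13 of 14 in P3, with medians of 2.28 and 2.59. Ddx39 (also called Ddx39a), an mRNA export helicase, had 2.52, 3.41 and 7.88 RPKM in adult. It reached 62.6, 62.8, 48.1 and 55.0 in P1 and 70.7, 75.3, 55.7 and 47.3 in P3, far above the adult libraries, with changes of 3.70 (SE 0.24, limma adjusted p = 3.5e-10) and 3.81 (SE 0.24, limma adjusted p = 1.0e-10). Ddx5, a splicing and transcription cofactor, had the highest level of the 88 genes, 54.0 RPKM ± 19.2 (SD, n = 7) in adult, 250.5 ± 71.1 (SD, n = 4) in P1 and 302.6 ± 35.5 (SD, n = 4) in P3. Dhx38 and Dhx15, which drive a catalytic step of splicing and release the spliced intron, rose by 2.89 and 2.66 in P1 and by 3.27 and 3.04 in P3. Dhx35, a spliceosome component, was the member not called in P3 (0.94), and its P1 rise of 1.28 had overlapping groups, with 2.16 in P1 replicate 1 and 2.61 in the highest adult library. Its P1 call ended against adult replicates 5 to 7 alone (0.91), and it passed in P3 without adult replicate 5 or 6 or P3 replicate 3 (1.01 to 1.08). After median-of-ratios scaling Dhx35 went to -0.01 in P1, and Ddx5 stood at 0.70 in P1 and 0.92 in P3, under the fold required. On that scale 6 of the 14 were called higher in P1 and 8 in P3.

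**Figure D4:**
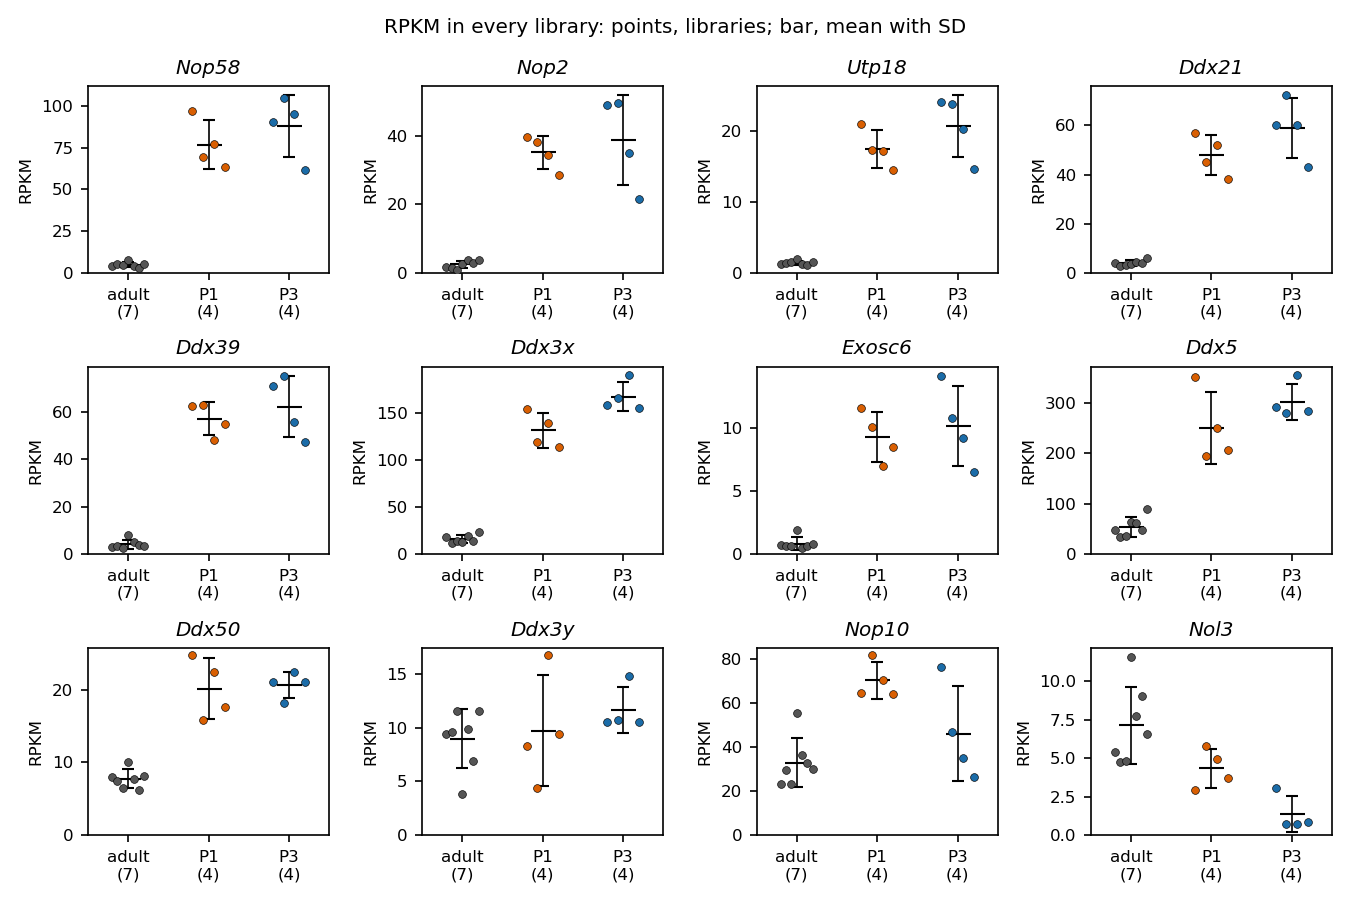
RPKM of 12 of the 88 genes in every library, on linear axes from 0; points are libraries, the horizontal bar is the group mean and the error bar its SD, with the number of libraries in brackets. Nop58, Nop2, Utp18, Ddx21, Ddx39, Ddx3x and Exosc6 separate neonatal from adult libraries fully, Ddx50 by less, Ddx3y overlaps in all groups, and Nol3 is lowest in P3.

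Of the helicases of mRNA export, translation and decay, 8 of 11 were called higher on each day (72.7%, against 62.7% of all tested genes), with medians of 1.54 and 1.95. After median-of-ratios scaling 2 of the 11 were called higher, Ddx3x and Dhx9, and 1 lower on each day, so this class stood near the background on both scales. Ddx3x, a translation helicase encoded on the X chromosome, had 11.9, 14.1 and 23.1 RPKM in adult. It had 154.6, 119.4, 140.0 and 113.8 in P1 and 159.0, 166.7, 190.5 and 155.5 in P3, with no overlap and changes of 3.02 (SE 0.20, limma adjusted p = 4.9e-10) and 3.37 (SE 0.20, limma adjusted p = 6.9e-11). Ddx3y, its close copy on the Y chromosome, had 3.81, 9.62 and 11.6 in adult. It had 8.26, 4.39, 16.8 and 9.42 in P1 and 10.5, 10.7, 14.8 and 10.5 in P3, so that all groups overlapped, and it was not called (0.04, limma adjusted p = 0.91, and 0.42, limma adjusted p = 0.20). Its direction depends on the scaling, with -1.42 in P1 and -1.14 in P3 after median-of-ratios scaling. How reads were shared between these near-identical copies is not given in the sources used here, and the sex of the animals is not given, so its values are uncertain. Dhx9, a nuclear helicase that resolves double-stranded RNA, rose by 2.70 and 3.05. Ddx19b (0.83 and 0.56) and Dhx34 (0.69 and 0.66), which take part in export and in nonsense-mediated decay, stayed under the fold required.

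Ddx58 encodes RIG-I, a sensor of viral RNA rather than a ribosome factor. It had 0.177, 0.475 and 1.71 RPKM in adult, 2.29, 1.17, 2.11 and 3.31 in P1 and 2.52, 4.68, 8.10 and 24.2 in P3. P1 overlapped adult and P3 did not, with P3 replicate 4 far above the other 3. Limma called it higher in P1 (1.22, adjusted p = 0.014) and in P3 (2.76, adjusted p = 8.1e-06). The P1 call ended against adult replicates 1 to 4 alone (1.00, limma adjusted p = 0.082), without P1 replicate 4 (1.04, limma adjusted p = 0.053) and after median-of-ratios scaling (0.19). The P3 call held in all of these settings, at 1.56 after median-of-ratios scaling. Endothelial markers made up 0.372% of the RPKM sum in the P3 library with the lowest Ddx58 and 1.27% in that with the highest, and their part in this was not tested. Of the helicases that serve mitochondria, Dhx30 was called on both days (1.88 and 1.73), but stood at 0.47 and 0.23 after median-of-ratios scaling. Ddx28 was at 0.96 in P1, under the fold required, and 1.00 in P3. Its P3 call ended without any 1 of 5 libraries, adult replicates 1, 2 and 3 and P3 replicates 1 and 2 (0.87 to 0.98). The P3 change of Ddx28 turned to -0.40 after median-of-ratios scaling.

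Nol3 ran against the rest. Despite its name it encodes ARC, a repressor of apoptosis that is abundant in heart muscle, and has no known part in ribosome assembly. It had 4.74, 6.56 and 11.6 RPKM in adult, 2.90, 5.75, 4.96 and 3.72 in P1 and 3.08, 0.741, 0.742 and 0.841 in P3. P1 overlapped adult, and every P3 library lay below every adult library. On the deposited scale limma gave -0.63 in P1 (SE 0.30, adjusted p = 0.058, not called) and -2.14 in P3 (SE 0.30, adjusted p = 2.1e-06). The P1 result depends on the scaling, as Nol3 was called lower in P1 under each of the 4 scalings tried. It was at -2.01 after quantile normalization, -2.03 after median-of-ratios scaling, -1.26 with equal RPKM sums and -1.55 without the 100 highest genes. Nol3 was the only one of the 88 genes called lower in P3 on the deposited scale, and it was called lower there under each of the 27 settings. Without P3 replicate 1, the highest of its group, it was -2.52. That library also held the most cardiomyocyte marker RNA of P3, 2.03% of the RPKM sum against 0.341% to 0.558% in the other 3, and the part of this in the Nol3 level was not tested. The other names outside the main roles were Dhx57, called higher at 1.52 and 2.17, and Dhx32 (0.99 and 0.72) and Ddx59 (0.33 and 0.34), which were not called on the deposited scale. Dhx32 passed in P1 without adult replicate 5 or 6 or P1 replicate 1 (1.03 to 1.15).

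P3 and P1 differed little for these genes, as for most tested genes of the table. Called higher in P3 than in P1 were 0 of 88 (1.4% of all tested genes) and lower 1 (5.31% of all tested genes), by limma, and at an unadjusted p under 0.05 8 were higher and 3 lower, where 13.5% and 14.1% of all tested genes were. The median change was 0.19, against 0.09 over all tested genes. For 16 of the 88 genes the P1 and P3 libraries did not overlap, as for 13.2% of all tested genes. The gene called was Nol3, at -1.51 (SE 0.34, adjusted p = 0.017), and this call did not hold everywhere. It was lost without any 1 of 5 libraries, P1 replicates 2 and 3 and P3 replicates 2, 3 and 4, with values of -1.44 to -1.38 and adjusted p of 0.056 to 0.078. Dhx40, a DEAH-box helicase, had 7.59, 5.38, 7.13 and 5.56 RPKM in P1 and 9.48, 11.3, 13.1 and 12.3 in P3. Its groups did not overlap, and its difference of 0.80 had a limma adjusted p of 0.030 but was under the fold required. Ddx58 was 1.54 higher in P3 than in P1 with a limma adjusted p of 0.053. It passed in 5 of the 27 settings, among them without P3 replicate 1 (1.98, adjusted p = 0.0052), and without P3 replicate 4, its highest library, the difference was 0.97 (limma adjusted p = 0.16). Rrp12 went the other way, with -0.79 and a limma adjusted p of 0.096.

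Paralogs were set side by side within each library, where any scaling of the whole library cancels. The 7 pairs were taken for their close relation, with their values already known, and gave 21 two-sided exact permutation tests of the log2 ratio, adjusted together. The smallest p that 4 against 7 libraries allow is 0.0061, and that of 4 against 4 is 0.029. The ratio of Ddx21 to Ddx50 was 0.369 to 0.741 in adult, 2.17 to 2.86 in P1 and 2.05 to 3.98 in P3. Ddx50 thus exceeded Ddx21 in all 7 adult libraries and Ddx21 exceeded Ddx50 in all 8 neonatal ones, with log2 differences of 2.22 and 2.45 (exact permutation p = 0.0061 each, adjusted p = 0.014). Ddx3x over Ddx3y was 1.23 to 3.27 in adult, 8.36 to 27.2 in P1 and 12.9 to 15.6 in P3, with differences of 3.02 and 2.97 (exact permutation p = 0.0061, adjusted p = 0.014) and the same doubt about shared reads and sex as above. Ddx39 over Ddx39b was 0.227 to 0.454 in adult, 0.474 to 0.709 in P1 and 0.519 to 0.757 in P3, with differences of 0.79 and 0.92 at the same p. Ddx39b therefore had the higher RPKM of the pair in all 15 libraries.

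The remaining 4 pairs also passed. Ddx19a over Ddx19b rose by 0.86 in P1 (exact permutation p = 0.012, adjusted p = 0.023) and by 1.51 in P3 (exact permutation p = 0.0061, adjusted p = 0.014). Rrp1 over Rrp1b fell by 1.02 in P1 and by 1.44 in P3 (exact permutation p = 0.0061, adjusted p = 0.014 for both). With 0.5 added to each value the P1 shift was -0.31 and no longer passed, as Rrp1b had 0.391 to 0.974 RPKM in adult. Nop58 over Nop56 rose by 0.77 and 0.68 (adjusted exact permutation p = 0.023 and 0.032), and Ddx5 over Ddx17 fell by 0.60 and 0.59 (adjusted exact permutation p = 0.036 for both, lost with 0.5 added, at -0.47 and -0.46). Against adult replicates 1 to 4 alone or 5 to 7 alone none of the 14 shifts from adult passed after adjustment, Ddx21 over Ddx50 and Ddx3x over Ddx3y included, and all 14 kept their sign. The smallest unadjusted p there is 0.029 and 0.057, so these losses say little of the ratios themselves. Nop58 over Nop56 did depend on the adult set, with 0.42 in P1 and 0.33 in P3 against replicates 1 to 4 and 1.23 and 1.15 against replicates 5 to 7. Leaving out 1 library, which raises the smallest p to 0.017 or 0.0095, also ended calls of 3 pairs. Ddx19a over Ddx19b in P1 then ranged from 0.57 (without P1 replicate 1) to 0.96, Nop58 over Nop56 from 0.60 to 0.76 and Ddx5 over Ddx17 from -0.75 to -0.44. No pair passed between P3 and P1.

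**Figure D5:**
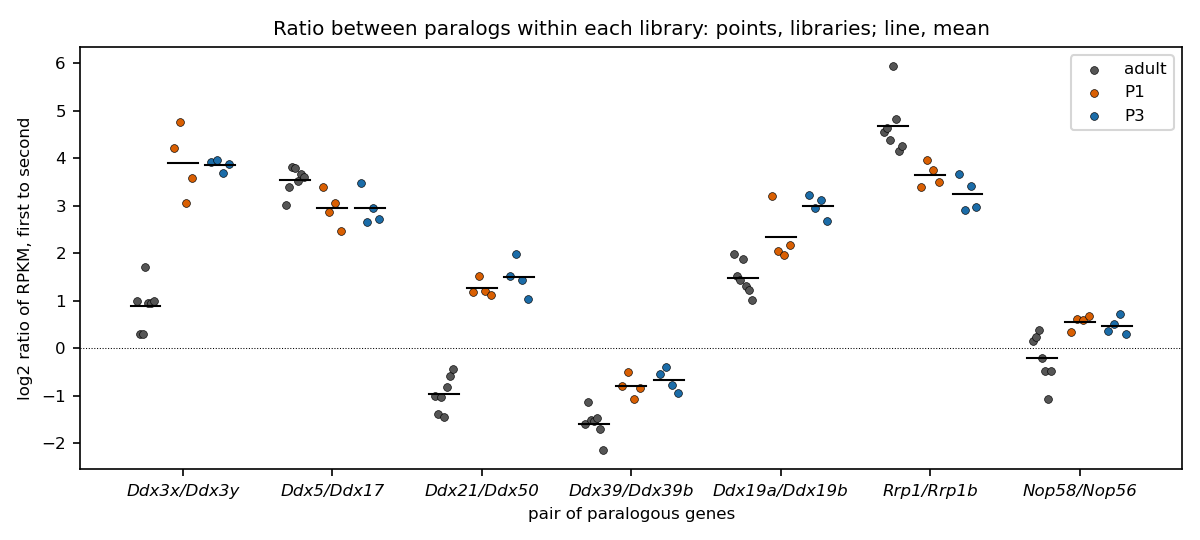
Log2 ratio of RPKM between the 2 genes of 7 paralog pairs within each library; points are libraries, horizontal lines group means, and the dotted line equal RPKM. Ddx21 to Ddx50 lies below 0 in all 7 adult libraries and above 0 in all 8 neonatal ones.

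Genes of the same pathways with other names were read from lists made for comparison. Of 78 listed assembly factors outside the name rule, 78 were called higher on both days, against 62.7% of all tested genes. Their medians were 2.42 and 2.65, where all tested genes had 1.36 and 1.48. After median-of-ratios scaling 43 and 47 were called higher, against 16.5% and 22.7% of all tested genes. Ppan, a large-subunit factor, was 3.87 and 4.35 higher and Gnl3 (nucleostemin, a nucleolar GTPase) 3.57 and 3.95. Fbl, the methyltransferase that sits on Nop56 and Nop58, went from 8.48 RPKM ± 3.20 (SD, n = 7) in adult to 83.0 ± 17.0 (SD, n = 4) in P1 and 88.1 ± 21.1 (SD, n = 4) in P3. The abundant nucleolar proteins Ncl and Npm1 were 2.88 and 3.32 higher in P1 and 3.06 and 3.47 higher in P3. Among 16 genes of RNA polymerase I and its factors, 13 were called higher on each day (81.2%, against 62.7% of all tested genes). The largest rise was that of Taf1d (3.95 and 4.23). Next came Polr1b, a core subunit of the polymerase, in P1 (2.74, and 2.71 in P3) and Polr1c, a subunit shared with RNA polymerase III, in P3 (2.85, and 2.61 in P1). After median-of-ratios scaling 4 of the 16 were called higher on each day, where 16.5% (P1) and 22.7% (P3) of all tested genes were. Polr1e, another subunit, was the 1 gene of that list called lower in P3 than in P1 (-1.02, limma adjusted p = 0.036). Of all tested genes, 5.31% were called lower in that comparison.

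Cofactors of the exosome were called higher in 12 of 15 cases on each day (80%, against 62.7% of all tested genes). Among them were the exosome nuclease Dis3 (2.87 and 3.02) and Rbm7, of a complex that hands the exosome nuclear RNA (2.61 and 3.09). After median-of-ratios scaling 4 of the 15 were called higher in P1 (16.5% of all tested genes). In P3 5 were called higher (22.7% of all tested genes) and 1 lower (24.9%). Of 12 RNA helicases under other names, 9 were called higher in P1 (75%, against 62.7% of all tested genes) and 10 in P3 (83.3%, against 62.7%). After median-of-ratios scaling 2 were called higher and 1 lower in P1, where 16.5% and 19.7% of all tested genes were. In P3 4 were called higher and 2 lower, where 22.7% and 24.9% of all tested genes were. Eif4a1, the helicase of translation initiation, rose from 37.7 RPKM ± 7.67 (SD, n = 7) to 429.8 ± 93.6 (SD, n = 4) in P1 and 493.2 ± 88.1 (SD, n = 4) in P3, or by 3.49 and 3.70. Its paralog Eif4a2 had 56.0 ± 7.22 (SD, n = 7), 71.7 ± 11.9 (SD, n = 4) and 73.1 ± 3.18 (SD, n = 4) and was not called (0.35 and 0.39), and it was at -1.19 and -1.23 after median-of-ratios scaling. Eif4a3, a core protein of the exon junction complex, was 2.54 and 2.81 higher.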

How the data were processed

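Messenger RNA of 15 libraries was read from 1 table of RPKM values that the authors deposited, with 1 column per library. HISAT2, Partek 6.6 and mm10 stand in the submitters' processing notes, with no role or order. How reads were counted, on which annotation and with which strand setting is not given in the sources used here. The values of close paralogs and of overlapping genes are uncertain for that reason. The lowest value in the table is 0.1001, and genes under about that level in any library are not analysed here.

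Tests covered the 9389 of 9666 genes that reached 1 RPKM in 4 or more libraries and ran on log2(RPKM + 0.5), which understates the change of low genes. The model, fitted with limma 3.58.1 under R 4.3.3 with a mean-variance trend in eBayes, had 1 coefficient for each of the 3 groups and no covariate. Tests are two-sided, with Benjamini-Hochberg adjustment over all tested genes. The fit was first run on simulated data with planted changes. Paralog ratios were compared by exact permutation tests in Python 3.11.15.

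Whole reads were recovered from the steps of RPKM in all libraries for 8430 genes (87.2%, relative tolerance 3e-05) and for 0% once values were randomly shifted by 1 percent; 75 of the 88 genes were among them. The median gene of these 75 had 44 to 56 reads in adult replicates 1 to 4, 123 to 144 in adult replicates 5 to 7 and 413 to 665 in neonatal libraries, counting 1 step as 1 read, and 2 (Exosc6 and Utp23) had under 10 reads in some adult library. No 2 libraries held identical values.

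The members, the role and pathway lists and the markers were chosen with earlier results of these data known. Genes are named by a rule: in each role the largest and smallest change on each day and the highest level; members called lower; members called in P3 against P1; the largest changes of each pathway list; and Eif4a1, Eif4a2, Fbl, Ncl and Npm1. Other genes named (such as Nop56, Nol9, Rrp12, Dhx9, Dhx15, Dhx38, Dhx40, Ddx18, Ddx27, Dhx33, Ddx19b, Dhx34, Ddx59, Exosc2 and Polr1e) were chosen after their values were seen. Alternatives covered pseudocounts, the filter, 4 scalings, each set of adults, the replicate block and leaving out each library. Those for the paralog ratios were added after the data were seen. Promoters come from RefSeq (GRCm38.p6) and positions from GENCODE M21.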

Additional observations from a re-analysis of the deposited data

Results flagged for a closer look

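Within groups of 4 or 7 libraries, 6 of 75 checks found a library set apart from the rest by Dixon's criterion, which chance alone meets in about 1 of 20 groups. In P3, replicate 3 was high for Ddx3y (14.8 RPKM, the others 10.5 to 10.7) and for Ddx5 (355 RPKM, the others 280 to 291), and low for Dhx35 (2.76 RPKM, the others 4.13 to 4.38). P3 replicate 1 was high for Nol3, at 3.08 RPKM where the other 3 had 0.741 to 0.841. Adult replicate 4 was high for Exosc6 (1.92 RPKM, the others 0.483 to 0.835) and for Nol7 (25.5 RPKM, the others 10.7 to 13.3).

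The change of Nol3 against adult differed between the neonatal days, by -1.51 on the log2 scale from P1 to P3 (limma adjusted p = 0.017). The same difference had an adjusted p of 0.052 when only P1 and P3 libraries were fitted.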

How the results depend on the processing

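The count of the 88 genes called higher in P1 against adult was 80, and 31 after quantile normalization, 30 after median-of-ratios scaling and 51 when scaled without the 100 highest genes. Their median of 2.06 moved to 0.68, 0.69 and 1.16, and to 1.43 with equal RPKM sums. The count called lower, 0, became 2, 2, 1 and 1 in the same 4 settings. In P3 against adult, 78 called higher became 36 under quantile normalization and 36 under median-of-ratios scaling, 1 called lower became 2 and 3, and the median of 2.31 became 0.85, 0.87, 1.81 (equal sums) and 1.44 (without the 100 highest genes). These scalings lower the all-gene median too, to between 0.06 and 0.77 (P1) and between 0.09 and 1.00 (P3). In P3 against P1, 0 called higher became 1 with a pseudocount of 1 or equal sums, 1 called lower became 0 with only the 2 groups fitted, and the median of 0.19 became 0.32 with equal sums.

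Of the 87 genes above 0 on the deposited scale, 15 fell below 0 in some setting in P1 and 14 in P3, all of them under median-of-ratios scaling and 12 on each day under quantile normalization. Turns that involved a call, among genes named by the rule, were (quantile, then median-of-ratios) in P1 Ddx3y (-1.32, -1.42), Ddx50 (-0.03, -0.17), Dhx35 (-0.12, -0.01) and Nol7 (-0.14, -0.39), and in P3 Ddx28 (-0.47, -0.40), Ddx3y (-1.06, -1.14) and Ddx50 (-0.02, -0.20). For Nop10 median-of-ratios scaling gave -0.40 in P1 and -1.19 in P3, for Eif4a2 -1.19 and -1.23. The cause was not tested.

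Leaving out each library in turn gave 79 to 84 called higher and 0 to 0 lower in P1 (median 1.98 to 2.14), 77 to 79 higher and 1 to 1 lower in P3 (median 2.22 to 2.33), and 0 to 1 higher and 0 to 2 lower in P3 against P1 (median 0.13 to 0.27). Against adult replicates 1 to 4 alone 81 and 79 were called higher, and against adult replicates 5 to 7 alone 79 and 77.

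Replicate numbers are shared between groups. Deviations of same-numbered libraries had correlations of both signs (-0.51 to 0.37), and no pairing was assumed. Whether the numbers mark shared processing cannot be told from these correlations. With a replicate block over replicates 1 to 4, 82 genes were called higher in P1 and 79 in P3, and 0 rather than 1 was called lower in P3 against P1, where Nol3 had a limma adjusted p of 0.059.

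Few reads limit the low genes, above all in adult replicates 1 to 4. These libraries have the lowest median, 44 to 56 reads per gene. Exosc6 and Utp23 went down to 8 and 5 reads. Such counts do not measure library depth. The RPKM worth of 1 read is smaller in a larger library. Relative to adult replicate 1, it was 0.887 and 1.004 in adult replicates 2 and 3. In P3 it ran from 0.723 (replicate 1) to 1.038 (replicate 2). The extremes were adult replicates 4 (1.566) and 5 (0.572).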
